A study of Mus musculus with 12 samples.

Results

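The beta subunits of the sodium-potassium ATPase were followed in RNA of mouse Purkinje cells, the large inhibitory neurons that send the output of the cerebellar cortex. The members are the genes Atp1b1, Atp1b2 and Atp1b3, found by symbol, and they are 3 of the 43346 annotated genes measured. The material came from 1 male mouse, 14 months old, of the strain B6CASTF1/J, a cross of Castaneus with C57Bl6. Lysate of 13 excised Purkinje cells was mixed and then divided, and each of the 12 libraries was made by Smart-seq from 1 cell-equivalent of RNA longer than 200 bases, with spike-in RNA added. The libraries are named here by their technical replicate numbers, 1 to 6 and 8 to 13. They form 1 group without treatment or control, so every p-value below measures technical spread among splits of 1 lysate from 1 animal.

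The sodium-potassium ATPase uses ATP to carry sodium out of a cell and potassium in, and so maintains the gradients on which action potentials and transmitter uptake depend. Each pump pairs a catalytic alpha subunit with a beta subunit, a glycoprotein with 1 membrane span that is needed for the pump to fold, to reach the cell surface and to bind potassium normally. In the brain, beta 1 is known mainly from neurons, beta 2 mainly from glia, where it was first described as the adhesion molecule on glia, and beta 3 is found in a range of tissues. FXYD proteins are small membrane proteins that bind the pump and tune its ion affinity.

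In mm10, all 3 genes lie on the minus strand: Atp1b1 (ENSMUSG00000026576.8) on chromosome 1 from 164437109 to 164458355, Atp1b2 (ENSMUSG00000041329.9) on chromosome 11 from 69599736 to 69605942, and Atp1b3 (ENSMUSG00000032412.8) on chromosome 9 from 96332655 to 96364442. The coding sequences of their leading transcripts are 915, 873 and 837 bases long with the stop codon, in the order Atp1b1, Atp1b2, Atp1b3. In global alignments, Atp1b1 and Atp1b2 were identical at 66.4% of aligned bases, Atp1b2 and Atp1b3 at 64.2%, and Atp1b1 and Atp1b3 at 61.8%. No run of 25 bases was shared between any pair of the 3 leading transcripts. The longest shared coding run was 19 bases, in Atp1b1 and Atp1b2, and it is shown because it marks the stretch where reads of the genes are hardest to tell apart. It crosses the junction of exons 5 and 6 in both genes. The spliced coding strand is printed 5′ to 3′, with the shared run in capitals, for transcript bases 1123 to 1182 of Atp1b1-201 (within chr1:164438507-164439325) and 1040 to 1099 of Atp1b2-201 (within chr11:69601591-69602451), both from GENCODE M21 on GRCm38.
Atp1b1-201: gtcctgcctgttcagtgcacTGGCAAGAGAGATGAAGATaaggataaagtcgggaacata
Atp1b2-201: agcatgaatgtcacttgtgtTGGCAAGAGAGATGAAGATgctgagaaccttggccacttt
On both sides of that run the genes differ within a few bases.

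Depth ranged from 15167444 total expected counts in library 5 to 27806010 in library 10, and gene counts per spike-in count ranged from 5.86 to 19.9. The labelled cell type was checked against its markers: 10 Purkinje markers summed to 28010 ± 5641 TPM (the length-scaled share of a library's transcripts; SD, n = 12), and 9 of the 10 reached 50 counts in every library. Markers of Bergmann glia, the astrocytes that surround Purkinje cells, were also present: 12 genes summed to 2761 ± 845 TPM, and 10 of them reached 50 counts in every library. Other summed markers were lower: 394 ± 198 TPM for granule cells, 194 ± 81.8 for oligodendrocytes and 106 ± 154 for microglia, whose sum ran between 0 and 446. Endothelial and mural markers summed to between 0 and 287 TPM, with the highest value in library 13, and choroid plexus markers to between 0 and 40.1 TPM, with the highest value in library 2. Ttr and Folr1 of the choroid plexus, Cldn5 of endothelial cells and Fcer1g of microglia had no count in any library, as was the case for 60.8% of all annotated genes. They were 2 of 3 choroid plexus markers, 1 of 5 endothelial and mural markers and 1 of 6 microglial markers. The other genes of these lists were counted in 1 or more libraries, so the uncounted genes do not show that a cell type was absent. In this bulk lysate, fewer cells of a type and less RNA per cell cannot be told apart, and the cell of origin of each beta subunit transcript was not tested.

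Atp1b1, the beta 1 subunit, was the most abundant member and among the most abundant transcripts of the lysate. Its level was 818 ± 218 TPM (SD, n = 12), with a lowest value of 600 TPM in library 2, a median of 788 and a highest value of 1377 in library 12. Libraries 12, 10 and 5 were highest, with 1377, 999.6 and 963 TPM, and the other 9 lay between 600 and 852. By mean TPM it stood at rank 126 of all annotated genes, and within single libraries its rank ran between 78 and 221. It had between 23940 and 85717 expected counts. Its coefficient of variation (SD over mean) was 0.267, against a median of 0.602 over the 1052 genes with a mean of 100 to 1000 TPM. Atp1b1 stood high within that wide class, and the median was 1.30 in the class of 10 to 100 TPM. These values therefore do not compare it with genes of its own level, for which a test is given below. The level lay below that of 6 of the 10 Purkinje markers and below that of 1 of the 12 Bergmann and astrocyte markers.

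The 3′ end of Atp1b1 overlaps 617 bases of Nme7, a nucleoside diphosphate kinase family gene read from the opposite strand. The strand of the libraries is not given, so reads from the overlap cannot be assigned to a strand. Nme7 had between 108 and 4534 counts, which was between 0.278% and 8.57% of the Atp1b1 count of the same library. Its TPM exceeded 100 in libraries 4, 5, 10 and 12, with 140, 351, 292 and 140 TPM, while the other libraries had between 8.17 and 44.8. Libraries 5, 10 and 12 were also the 3 highest for Atp1b1, while library 4 had 709 TPM of Atp1b1, below its median of 788. This was seen after the values were known. The part of the overlap in the Atp1b1 values was not tested.

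Atp1b2, the beta 2 subunit, was measured in every library at a lower level. It averaged 195 ± 65.6 TPM (SD, n = 12), with a lowest value of 56.8 TPM in library 1, a median of 186 and a highest value of 310.0 in library 11. Library 1 stood apart at the low end, since the next lowest value was 154 TPM in library 10. Counts ran between 3051 and 14342. Its rank by mean TPM was 598, its rank within libraries ran between 441 and 1917, and its coefficient of variation was 0.336. Its mean exceeded that of 7 of the 12 Bergmann and astrocyte markers and lay below that of 9 of the 10 Purkinje markers.

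Atp1b3, the beta 3 subunit, was the least abundant member and the most uneven. It averaged 43.4 ± 55.4 TPM (SD, n = 12), with a lowest value of 0.06 TPM in library 6, a median of 29.1 and a highest value of 194 in library 11. Libraries 4, 13, 8, 1, 12, 2, 9 and 10 had 82.4, 68.0, 56.4, 45.5, 37.1, 21.2, 11.8 and 4.26 TPM, and libraries 3, 5 and 6 had 0.16, 0.08 and 0.06. The values were spread without a common level, and the mean sat below 5 libraries and above the others.
In counts, 9 libraries had 212 or more, and libraries 3, 5 and 6 had 5, 2 and 2. The exact 95% Poisson interval was 1.62 to 11.7 counts for a count of 5 and 0.242 to 7.22 for a count of 2, for counting error only. With counts this low the transcript was barely detected in these 3 libraries, which does not show that it was absent. The 3 libraries had gene totals of 14596162, 13694551 and 17017995 counts, and library 11, the highest for Atp1b3, had 14029147. The coefficient of variation was 1.28, against a median of 1.30 over the 5385 genes with a mean of 10 to 100 TPM. In that abundance class, 13.7% of genes reached 50 counts in all libraries, against 72.1% of the class of Atp1b1 and Atp1b2, where both did.

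**Figure D1:**
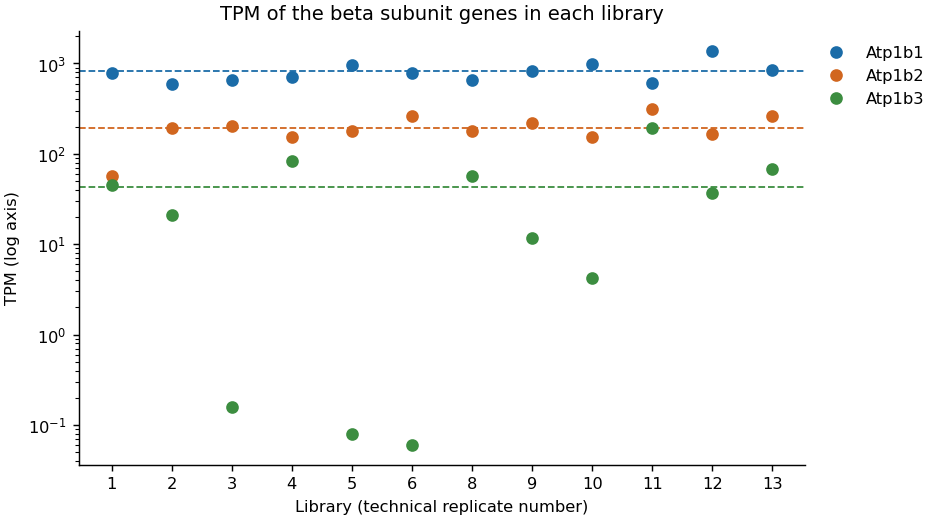
TPM of Atp1b1, Atp1b2 and Atp1b3 (log axis) in each of the 12 libraries, 1 point per library and gene, with dashed lines at the means of 818, 195 and 43.4 TPM. Atp1b1 is above the other members in every library, Atp1b2 drops to 56.8 TPM in library 1, and Atp1b3 falls to between 0.06 and 0.16 TPM in libraries 3, 5 and 6.

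The order Atp1b1, Atp1b2, Atp1b3 was the same in all 12 libraries. On log2(TPM + 1), Atp1b1 exceeded Atp1b2 by 2.12 ± 0.76 (SD, n = 12; 12 of 12 libraries), from 0.97 in library 11 to 3.77 in library 1. Atp1b1 exceeded Atp1b3 by 5.66 ± 2.75 in 12 of 12 libraries, from 1.64 in library 11 to 9.80 in library 5. Atp1b3 minus Atp1b2 was -3.54 ± 2.79, below 0 in 12 of 12 libraries, from -7.97 in library 6 to -0.31 in library 1. Each pair had a two-sided exact sign-flip permutation p of 0.000488, the smallest that 12 libraries can give, and the same value after Benjamini-Hochberg adjustment over the 3 pairs. The mean differences between neighbours in the order were thus distinguished from 0 over these splits, which does not measure their size against their spread. The margin between Atp1b3 and Atp1b2 was under 1 log2 unit in libraries 1, 4 and 11, at -0.31, -0.89 and -0.67. As a ratio of mean TPM, Atp1b1 was 4.19-fold above Atp1b2 and 18.8-fold above Atp1b3.

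The libraries were divided by replicate number into the runs 1 to 5, 6 to 10 and 11 to 13, a division made with the data known and not named as batches by the labels, and the differences were also taken within them. Atp1b1 minus Atp1b2 averaged 2.34, 2.01 and 1.90 in these runs. The 2 differences that hold Atp1b3 were smaller in size in the last run: Atp1b1 minus Atp1b3 averaged 6.18, 6.66 and 3.48, and Atp1b3 minus Atp1b2 averaged -3.84, -4.65 and -1.58. The sign was the same in each run, and with 5, 4 and 3 libraries no test was made within them.

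**Figure D2:**
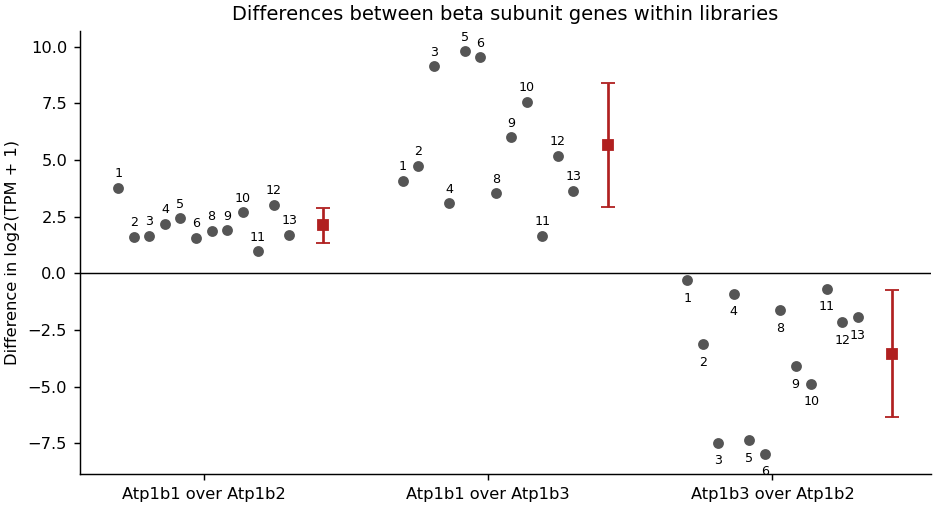
Difference in log2(TPM + 1) between members within each library (numbered points, 12 per pair) with the mean ± SD beside them (red squares, n = 12). Atp1b1 over Atp1b2 is above 0 in all 12 libraries with a mean of 2.12, Atp1b1 over Atp1b3 is above 0 with a mean of 5.66, and Atp1b3 over Atp1b2 is below 0 with a mean of -3.54.

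As a share of the summed beta subunit TPM, Atp1b1 took 77.0 ± 9.22%, Atp1b2 18.8 ± 6.48% and Atp1b3 4.15 ± 5.11% (SD, n = 12). The Atp1b1 share was lowest in library 11, at 54.6%, where Atp1b2 and Atp1b3 had their highest TPM. It was highest in library 1, at 88.5%, where Atp1b2 had its lowest. The summed TPM itself was 1057 ± 208, from 816 in library 2 to 1581 in library 12.

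The transcripts behind these gene levels differed in kind. Atp1b1 has 4 annotated transcripts, and Atp1b1-201, the 2580-base coding transcript, held between 99.89% and 100% of the gene's TPM in each library. Atp1b2 has 5 annotated transcripts, of which 2 had no count. Its coding transcript Atp1b2-201 (2842 bases) led in 12 of 12 libraries with 87.6 ± 9.35% of the gene's TPM (SD, n = 12), lowest in library 2 at 68.6% and highest in library 10 at 96.3%. Atp1b2-202, a processed transcript of 3751 bases annotated without a coding sequence, held 10.8 ± 7.21%, from 3.58% in library 10 to 29.7% in library 1, with 531 to 2259 counts. Atp1b2-204, another processed transcript, reached 503 counts and 19.0% in library 2 and at most 5.30 counts elsewhere. In libraries 1 to 5 the Atp1b2-201 share lay between 68.6% and 90.8%, in libraries 6 to 10 between 90.5% and 96.3%, and in libraries 11 to 13 between 91.7% and 95.5%.

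Atp1b3-201, the 1994-base coding transcript of Atp1b3, held 100% of the gene's TPM in 10 of the 12 libraries. The exceptions were libraries 1 and 2. In library 2, 99.46% of the gene's TPM was assigned to Atp1b3-203, a 541-base transcript annotated as a retained intron, with 207 of its 212 counts, and the coding transcript had 4.84 counts there. In library 1, Atp1b3-203 held 20.9% with 75.1 counts, beside 1215 counts for Atp1b3-201. Counting only the coding transcript, library 2 therefore had 0.11 TPM and stood with libraries 3, 5 and 6. The Atp1b3-203 reads were not seen directly, since the deposited values are estimates of how reads divide among annotated transcripts.

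Retained intron stretches that set these non-coding transcripts apart are shown because reads over them bear on the transcript estimates. Atp1b3-203 begins 206 bases upstream of exon 3 of Atp1b3-201, inside intron sequence at chr9:96343376-96343581. The strand of the gene over chr9:96343301-96343450 is printed 5′ to 3′, with exon 3 in capitals. Atp1b2-202 keeps the 801 bases between exons 5 and 6 of Atp1b2-201, at chr11:69601624-69602424. It also starts farther upstream, at base 69605942 against 69605829 for Atp1b2-201, and that stretch is not printed. The strand of the gene over chr11:69602350-69602481 is printed likewise, with exon 5 in capitals, and both come from GENCODE M21 transcripts on GRCm38.
Atp1b3-203: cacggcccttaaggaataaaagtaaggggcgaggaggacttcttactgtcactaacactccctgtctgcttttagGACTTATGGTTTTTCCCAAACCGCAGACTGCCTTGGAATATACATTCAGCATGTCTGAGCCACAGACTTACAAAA
Atp1b2-202: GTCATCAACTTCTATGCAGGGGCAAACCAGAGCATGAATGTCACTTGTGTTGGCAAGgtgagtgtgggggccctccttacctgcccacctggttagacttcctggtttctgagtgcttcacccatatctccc
The lower-case intron letters end in ag before the Atp1b3 exon and begin with gt after the Atp1b2 exon, the usual bases at intron ends, and both remain in these transcripts as annotated.

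**Figure D3:**
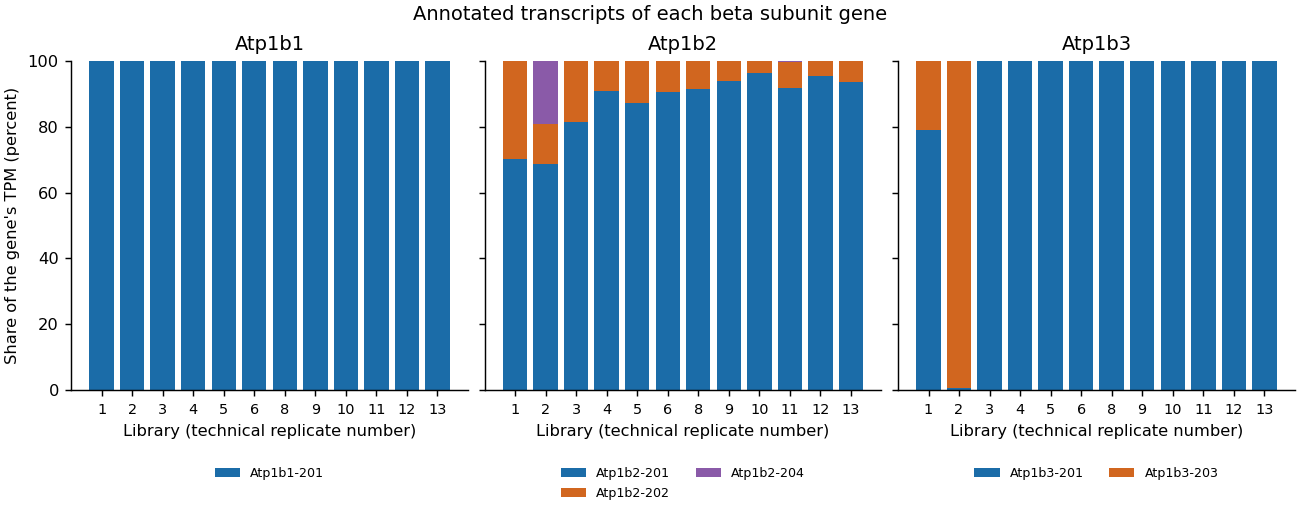
Share of each gene's TPM (percent) held by its annotated transcripts in the 12 libraries, for transcripts that reach 1% in any library. Atp1b1-201 fills every bar, Atp1b2-201 lies between 68.6% and 96.3%, and Atp1b3-203 takes 20.9% in library 1 and 99.46% in library 2.

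Whether the members varied more than counting error allows was tested gene by gene with chi-square, setting each library's count beside the count expected if the gene took 1 constant share of all gene counts. Of 13899 genes tested, 13889 (99.9%) were called at an adjusted p under 0.05, so a call of a member says little about it. All 3 members were called. Chi-square per degree of freedom was 3136 for Atp1b1, 1134 for Atp1b2 and 2681 for Atp1b3, against a median of 1031 over all genes tested. At equal relative spread this value grows with the count, and the mean counts were 39967, 10344 and 1441 in the same order. It therefore ranks neither the members nor a member against all genes by spread. The coefficients of variation of TPM were 0.267, 0.336 and 1.28. With counts thinned to 1%, chi-square per degree of freedom was 31.2, 10.7 and 24.6 in the same order, with Benjamini-Hochberg adjusted p of 4.26e-66, 6.46e-20 and 5.90e-51. At that depth 5842 genes were called, of a smaller number tested that is not given. No share over all genes therefore stands beside these values.

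Variation beyond that of genes of like abundance was tested with edgeR's quasi-likelihood fit, in which 2 of the 13899 genes (0.0144%) were called at a Benjamini-Hochberg adjusted p under 0.05. No member was among them, although Atp1b3 ran between 2 and 5862 counts. The quasi-dispersion of Atp1b1 was 1.46 times the trend (edgeR unadjusted p = 0.297, adjusted p = 0.773). For Atp1b3 it was 1.80 times the trend (unadjusted p = 0.202, adjusted p = 0.773), and for Atp1b2 0.652 times (unadjusted p = 0.750, adjusted p = 0.884). Single libraries moved these ratios: Atp1b1 was 0.469 times the trend without library 12, Atp1b3 0.974 times without library 11 and Atp1b2 0.282 times without library 1, and edgeR's adjusted p stayed above the threshold for each. The median over all genes tested was 1.20 times. The unevenness of Atp1b3 was therefore not distinguished by this test from that of other genes at its level.

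The members were also compared across libraries with each other and with the summed TPM of the Purkinje and of the Bergmann and astrocyte markers, in 9 relations on log2(TPM + 1). The libraries are splits of 1 lysate, and TPM values of a library share 1 total. The strongest relation joined Atp1b2 with the Bergmann and astrocyte sum, with Pearson's r = 0.651 (permutation p = 0.0243, adjusted p = 0.219, n = 12) and Spearman's rho = 0.552 (permutation p = 0.0667, adjusted p = 0.600). It did not pass the correction over the 9 relations. With libraries 1 and 13 left out, whose marker sums lay farthest from the median, r was 0.299 (permutation p = 0.400, n = 10). The relation was thus not distinguished from none without them. Leaving out the ends of the x axis also narrows its range, which can lower r by itself. With 1 library left out at a time, r was 0.455 without library 1 and 0.640 without library 13. Library 1 had both the lowest Atp1b2 value and the lowest marker sum, at 1621 TPM, and library 13 had the highest sum, at 4741 TPM. Centred within the runs of replicate numbers, r was 0.644 (permutation p = 0.0503, adjusted p = 0.438).

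The other 8 relations had r between -0.283 and 0.318 (unadjusted permutation p from 0.318 to 0.924, adjusted p from 0.887 to 0.924) and rho between -0.364 and 0.119 (adjusted permutation p from 0.882 to 0.887). Among the members, r was -0.19 for Atp1b1 with Atp1b2, -0.18 for Atp1b1 with Atp1b3 and -0.098 for Atp1b2 with Atp1b3. Atp1b1 with the Purkinje sum had the highest r of the 8, at 0.318, and 0.0141 without library 12. With the 2 libraries at the largest distance from the x axis median left out, the 8 values of r lay between -0.546 and 0.372, and centred within the runs of replicate numbers between -0.449 and 0.289.

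**Figure D4:**
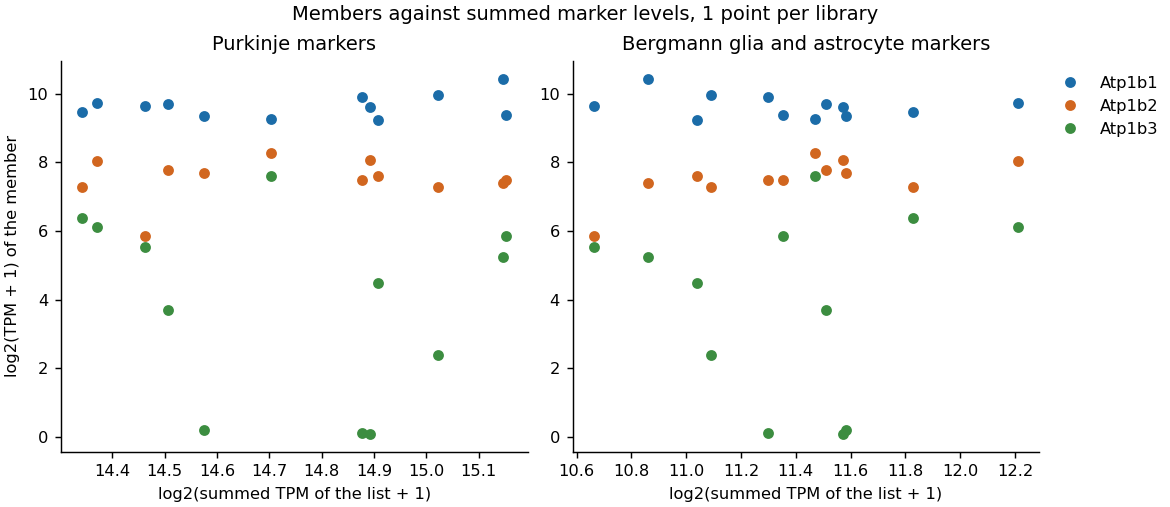
log2(TPM + 1) of each member against log2(summed TPM + 1) of the Purkinje markers (left) and of the Bergmann glia and astrocyte markers (right), 1 point per library and gene. Atp1b2 against the Bergmann sum has r = 0.651, and its lowest point is library 1.

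Of 13 other genes related to the pump or to the beta subunit family, 4 had no count in any library, against 60.8% of all annotated genes. A mean of at least 1 TPM was reached by 7, a share that was not computed over all genes. The lower of these means came from genes with a count in only 1 to 4 libraries. Fxyd1, or phospholemman, a regulator of the pump, was the only one of the 13 with a count in every library. It averaged 681 ± 316 TPM (SD, n = 12), with a lowest value of 245 TPM in library 12, a median of 607 and a highest value of 1283 in library 13, so its range overlapped that of Atp1b1. Nkain4, named for its interaction with the pump, averaged 158 ± 197 TPM, between 0 in library 1 and 593 in library 8, with 50 counts or more in 9 libraries. Fxyd3, another FXYD regulator, averaged 53.4 ± 47.8 TPM, between 0 in library 9 and 155 in library 2, with 50 counts or more in 10 libraries. The SDs of Nkain4 and Fxyd3 were close to or above their means, as for Atp1b3. Atp1b4, a beta family member known in placental mammals as a muscle nuclear envelope protein, Atp4b, the beta subunit of the gastric proton pump, Fxyd4 and Nkain1 were the 4 with no count, which allows up to 0.0137 CPM over all libraries together (CPM, counts scaled to each library's gene total).

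**Figure D5:**
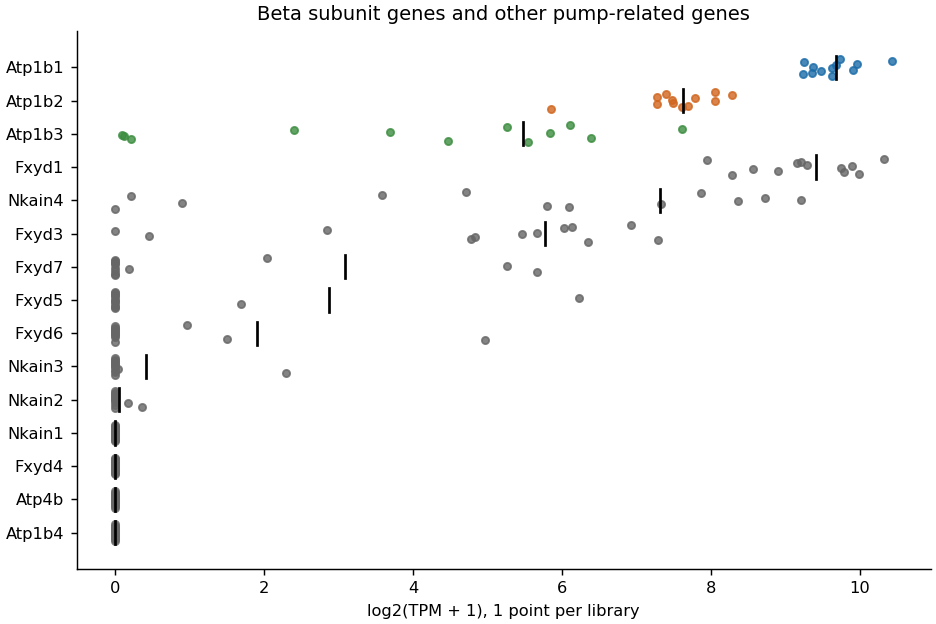
log2(TPM + 1) in each of the 12 libraries (points) for the beta subunit genes and 12 of the 13 other pump-related genes, with black bars at log2(mean TPM + 1). The gene left out had a count in 1 library only. Fxyd1, with a mean of 681 TPM, lies in the range of Atp1b1, Nkain4 and Fxyd3 spread down to 0, and Atp1b4, Atp4b, Fxyd4 and Nkain1 are at 0 throughout.

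The genes whose TPM followed each member most closely over the 12 libraries were taken from the 2162 (Atp1b1 and Atp1b2) or 2163 (Atp1b3) other genes with a mean of at least 50 TPM, by Spearman's rho, as a description without a test. For Atp1b1 they were Morf4l2 (rho = 0.888), Cplx1, which encodes complexin 1, a regulator of transmitter release (0.867), and Drg2, a GTP-binding protein (0.860). For Atp1b2 they were Scd2, a stearoyl-CoA desaturase (rho = 0.923), Prrc2c (0.867) and the pseudogene Tma7-ps (0.860), whose reads may be shared with its parent gene. For Atp1b3 they were Arxes2 (rho = 0.853), Snap47, a SNAP-25 family member (0.804), and Osbpl9, an oxysterol-binding protein family member (0.797). Values this high are to be read as the top of all genes compared, over 12 points that share a library total.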

How the data were processed

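Per a text file that the authors deposited beside the tables, reads were quantified on mm10 with GENCODE M4. The aligner, quantification program and strand were not given in the sources used here. Per the file headers, the authors deposited expected counts (estimated reads, with shared reads split), TPM computed over genes and spike-ins together, and, for transcripts, the percent of a gene's TPM. Symbols and positions were taken from GENCODE M21, which uses that assembly too (42462 of 43346 gene identifiers matched), and 5 of 5 transcripts discussed had the same length in both. Counts were rounded for tests. Genes whose mean count reached 5 entered the chi-square test and edgeR 4.0.16 (TMM factors, intercept-only glmQLFit, upper-tail F test against the trend), both tested on simulated data; R was 4.3.3 and Python 3.11.15. Pairs used exact sign-flip tests and correlations 100000 permutations, all two-sided, adjusted by Benjamini-Hochberg at 0.05. The pseudocount was 1. Coding sequences were aligned with Biopython 1.88. PCR reads without molecular identifiers make intervals and limits cover counting error only. DESeq2 1.42.0 size factors, other filters and scales and leaving out each library were alternatives.

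The members and lists were chosen with earlier results of these data known. Named genes were the 3 members, the 3 highest and the uncounted of the pump-related list, and the 3 genes most like each member by rho. Nme7, which overlaps Atp1b1, and the 4 markers without a count were named outside that rule, after their values were seen. The catalytic subunits are not reported here, and protein sequences were not used here.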

Additional observations from a re-analysis of the deposited data

How the results depend on the processing

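The pair differences kept their direction and their side of the threshold under every alternative run: pseudocounts of 0.1 and 10, CPM for TPM, protein-coding transcripts only, counts under 50 set to 0, and leaving out each library. Only CPM and protein-coding transcripts could have changed the order of the members. With the same order in all 12 libraries, the outcome of the other alternatives was fixed beforehand. Their sign-flip p could only be the smallest possible, and only the sizes of the differences could move. The difference of Atp1b1 from Atp1b3 ranged from 4.56 with a pseudocount of 10 to 6.47 with CPM. Leaving out 1 library gave 1.97 to 2.22 for Atp1b1 minus Atp1b2, 5.29 to 6.03 for Atp1b1 minus Atp1b3 and -3.84 to -3.14 for Atp1b3 minus Atp1b2. Mean TPM of Atp1b3 ranged from 29.7 without library 11 to 47.4, of Atp1b1 from 767 to 838 and of Atp1b2 from 185 to 208.0. With TPM taken over annotated genes alone, the means of Atp1b1, Atp1b2 and Atp1b3 were 989.8, 238 and 52.4 TPM.

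Calls beyond counting error numbered 5842 with counts thinned to 1%. The mean count of at least 5 was required again after thinning, so fewer genes were tested. The number tested is not given, so 5842 cannot be read as a share or set against 13889 of 13899. Calls beyond the abundance trend numbered 1 without library 1 and 2 without each other library. No correlation passed the correction under any alternative, but the sign of 3 weak ones changed, and the cause was not tested. For Atp1b2 with Atp1b3, r was 0.381 on linear TPM and ranged from -0.319 to 0.117 when 1 library was left out. For the Purkinje sum with Atp1b2, r was -0.045 on linear TPM, -0.0348 within the runs of replicate numbers and -0.317 to 0.242 when 1 library was left out. For the Bergmann sum with Atp1b3, r was -0.084 within the runs and -0.165 to 0.153 when 1 library was left out. No paired analysis was possible because the libraries form 1 group, so that replicate numbers pair no samples across groups, while the members were compared within libraries. Differences within the runs of replicate numbers were added after seeing the data. The planned comparison of protein sequences was not run. Counts of 5, 2 and 2 limit the precision of Atp1b3 in libraries 3, 5 and 6.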
